A study of Mus musculus with 6 samples.

Results

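The 9 genes described here encode enzymes of the tricarboxylic acid (TCA) cycle: Cs, Idh1, Idh2, Idh3a, Ogdh, Suclg1, Fh1, Mdh1 and Mdh2. They were taken by symbol, through their Ensembl identifiers, from a table of 21780 genes. RNA was sequenced from CD45+CD11b+ cells, the leukocyte and myeloid gate, sorted from the pancreas of wild-type C57BL/6 J mice aged 6 to 8 weeks. Mice had received 1 intraperitoneal injection 7 days before harvest, either PBS (3 libraries) or 1 mg of whole glucan particles (WGP), a particulate β-glucan from yeast cell walls, suspended in PBS (3 libraries). Males and females were used in the study, but the sex of the mouse behind each library was not given in the sources used here. Per the study, samples came from separate animals in 1 experiment, so that p-values measure the spread between these animals together with any technical spread.

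The TCA cycle runs in the mitochondrial matrix. Citrate synthase joins acetyl-CoA to oxaloacetate, isocitrate and 2-oxoglutarate dehydrogenase release carbon dioxide, and the dehydrogenases of the cycle pass electrons to NAD+ or, at succinate dehydrogenase, to the respiratory chain. Some steps have isoenzymes in other compartments: Idh1 and Mdh1 encode cytosolic enzymes, and Idh2 and Mdh2 their mitochondrial counterparts. In macrophages the cycle is known for being rerouted on activation, with citrate drawn off for lipid synthesis and for itaconate, and with succinate accumulating.

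Promoter sequence is shown for Cs, which rose, for Idh2, which fell, and for Idh1, which encodes the cytosolic counterpart of Idh2. The stretches come from the 250 bases upstream of the RefSeq transcription start (GRCm38.p6), are written 5′ to 3′ on the strand of the gene, and were shortened at the 3′ end where more than 30 bases fell inside the GENCODE gene, which left 238 bases for Idh2. Capitals mark each GC box (GGGCGG) and each CCAAT box (CCAAT), on either strand. Cs is at chr10:128337477-128337726 on the plus strand, Idh1 at chr1:65186480-65186729 on the minus strand and Idh2 at chr7:80115363-80115600 on the minus strand.
Cs: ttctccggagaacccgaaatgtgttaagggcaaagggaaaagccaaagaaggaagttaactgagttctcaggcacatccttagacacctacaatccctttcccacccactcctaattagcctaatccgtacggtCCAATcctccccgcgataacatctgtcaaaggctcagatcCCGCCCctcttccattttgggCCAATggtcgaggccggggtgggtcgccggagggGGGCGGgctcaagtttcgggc
Idh1: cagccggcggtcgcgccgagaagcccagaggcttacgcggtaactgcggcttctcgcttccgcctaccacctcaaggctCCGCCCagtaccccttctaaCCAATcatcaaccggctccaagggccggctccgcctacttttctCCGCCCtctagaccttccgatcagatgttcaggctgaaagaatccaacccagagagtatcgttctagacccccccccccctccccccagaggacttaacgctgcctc
Idh2: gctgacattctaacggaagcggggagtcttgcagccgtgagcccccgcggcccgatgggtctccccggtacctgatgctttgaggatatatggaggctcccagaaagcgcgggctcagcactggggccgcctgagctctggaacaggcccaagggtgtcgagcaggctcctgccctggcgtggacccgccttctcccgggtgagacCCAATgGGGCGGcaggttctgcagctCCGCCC

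All 3 stretches hold both boxes, with 2 GC boxes each and with 2 CCAAT boxes for Cs and 1 each for Idh1 and Idh2. In the Idh2 stretch the CCAAT box and the first GC box lie a single base apart. A window of 250 bases was present for 8 of the 9 genes (not Idh3a), and motifs were counted over whole windows. GENCODE starts some of these genes further upstream than RefSeq, so that 250 bases of the Mdh1 window, 169 of Mdh2, 123 of Suclg1, 42 of Idh2, 26 of Ogdh, 21 of Idh1 and 0 of Cs and Fh1 lie inside the GENCODE gene. Among these, 7 held a GC box, against 32.7% of 32851 RefSeq windows of that length, and 6 held a CCAAT box, against 33.8%. None of the 8 held the other 4 motifs searched on both strands, which were GCGCATGCG (NRF1 core, in 1.45% of all windows), TNAAGGTCA (estrogen-related receptor element, 1.14%), CACGTG (E-box, 6.02%) and TTCNNNGAA (interferon gamma-activated site, 7.02%). No matches overlapped in the printed stretches, and Cs, which was higher after WGP, could not be told apart from Idh2, which was lower, by which of these 6 motifs it held.

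The libraries held 35334645 to 43341834 counts, and every one of the 9 genes had at least 907 counts in each, so that all 9 passed the low-count filter in both groups. The commonest count above 10 in a library ranged from 19 to 41, so that reads of 1 molecule may have been counted repeatedly and counts are not taken as independent molecules. Dividing each library by that number moved the log2 fold change of Suclg1 from 0.43 to 0.45 and that of Idh1 from 0.11 to 0.08, and changed no member's call. PBS replicate 1 stood apart. Its CPM (counts of a gene relative to the TMM-scaled library size) summed over 5 B cell markers came to 2414, against 621 and 361 in the other PBS libraries and 86.8 to 169 after WGP. Over 8 neutrophil markers they came to 5065, against 2414 and 1203 and, after WGP, 1420 to 1900. Over 8 resident macrophage markers they came to 8560, against 14711 and 17910 and, after WGP, 2946 to 4975. Counts from 4 Y-linked genes (Ddx3y, Kdm5d, Eif2s3y and Uty) summed to 0 in PBS replicate 1, to 8972 and 10063 in the other PBS libraries, and to 0, 0 and 1 after WGP. Beyond that 1 count, only PBS libraries held Y-linked counts, so what goes with them cannot be fully told apart from the treatment. A fit in which carrying Y-linked counts is a covariate therefore sets the WGP libraries against PBS replicate 1 alone, and it is given below for each enzyme and pathway gene whose call it ends or makes.

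Marker genes of several cell types differed between the groups. The gate genes Ptprc (CD45) and Itgam (CD11b) were present in all libraries and both were higher after WGP (sum 1203 to 1231 CPM after PBS, 1925 to 2135 after WGP). Of 7 markers of Ly6C-high monocytes, 5 were higher (sum 755 to 1346 against 3589 to 4095 CPM), and of 8 resident macrophage markers 7 were lower. Macrophage lineage markers summed to 8203 to 14295 CPM after PBS and 20036 to 21296 after WGP, with 2 of 5 higher. Most of that sum was Lyz2, at 4933 to 8230 CPM after PBS and 15657 to 16887 after WGP, and the other that rose was Fcgr1. The log2 fold changes of Csf1r (−0.31), Adgre1 (−0.43) and Cd68 (−0.02) were negative and did not pass. All 5 B cell markers were lower, as were 5 of 6 markers of pancreatic acinar cells (881 to 3653 against 243 to 428 CPM). Of the 8 neutrophil markers Cxcr2 was higher (log2 fold change 1.30), and the other 7 had negative values from −1.28 to −0.62 that did not pass. Of 6 markers of conventional dendritic cells 1 was lower (148 to 194 against 67.5 to 130 CPM), of 5 T cell markers 1 was higher (19.5 to 31.9 against 11 to 41.8 CPM), of 5 NK cell markers 1 was higher and 1 lower (43.8 to 164 against 73.0 to 87.7 CPM), and none of 5 eosinophil markers (13.0 to 82.5 against 16.8 to 62.3 CPM) or 6 cycling markers (135 to 343 against 199 to 224 CPM) passed in either direction. With the Y-linked covariate the counts for the gate genes, the macrophage lineage, monocytes, B cells and acinar cells were the same. Resident macrophage markers then numbered 5 lower, neutrophil markers 0 higher and 6 lower, NK cell markers 0 higher and 1 lower, eosinophil and cycling markers 1 lower each, and dendritic and T cell markers 0 in either direction by edgeR. The part of these markers in the enzyme values below was not tested. In bulk RNA, fewer cells of a type and less RNA per cell cannot be told apart.

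The 9 enzymes did not shift together. Their summed level was 903, 917 and 934 CPM after PBS and 1026, 920 and 1035 CPM after WGP (918 ± 15.7 and 994 ± 63.9, SD, n = 3), a log2 ratio of 0.11. Within that sum, Cs, the entry enzyme of the cycle, rose 1.59-fold, and Idh2, the mitochondrial NADP-dependent isocitrate dehydrogenase, fell to 0.417 of its PBS level. The other 7 did not pass edgeR's quasi-likelihood test at a Benjamini-Hochberg adjusted p of 0.05 over 14429 genes. Cs was 1 of 9 that passed as higher, where 7.54% of all tested genes did, and Idh2 was 1 of 9 that passed as lower, where 6.81% did. Shares so near the background were not a result about the 9 genes as a set. On simulated counts edgeR called more unchanged genes than its threshold allows, so calls near the threshold are the less firm. Both genes also passed by DESeq2 (adjusted p = 0.000184 for Cs and 1.91e-05 for Idh2) and by limma-voom (0.0124 and 0.00624).

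With a log2 fold change of at least 1 also required, Idh2 was the 1 member that passed, as lower, against 4.96% of all genes. None passed as higher by edgeR, by DESeq2 or by limma-voom, or in edgeR at an unadjusted p under 0.05, against 4.53% of all genes. The PBS and WGP libraries did not overlap for 4 members. Cs, Ogdh and Mdh2 were higher in every WGP library, where 16.0% of all genes were, and Idh2 was lower in every WGP library, where 16.1% were. The median log2 fold change of the 9 was 0.11 and its median size 0.38, beside −0.05 and 0.54 over all tested genes. Standard errors of the 9 ran from 0.13 to 0.27, below the median of 0.33 over all tested genes, which include many with low counts.

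**Figure D1:**
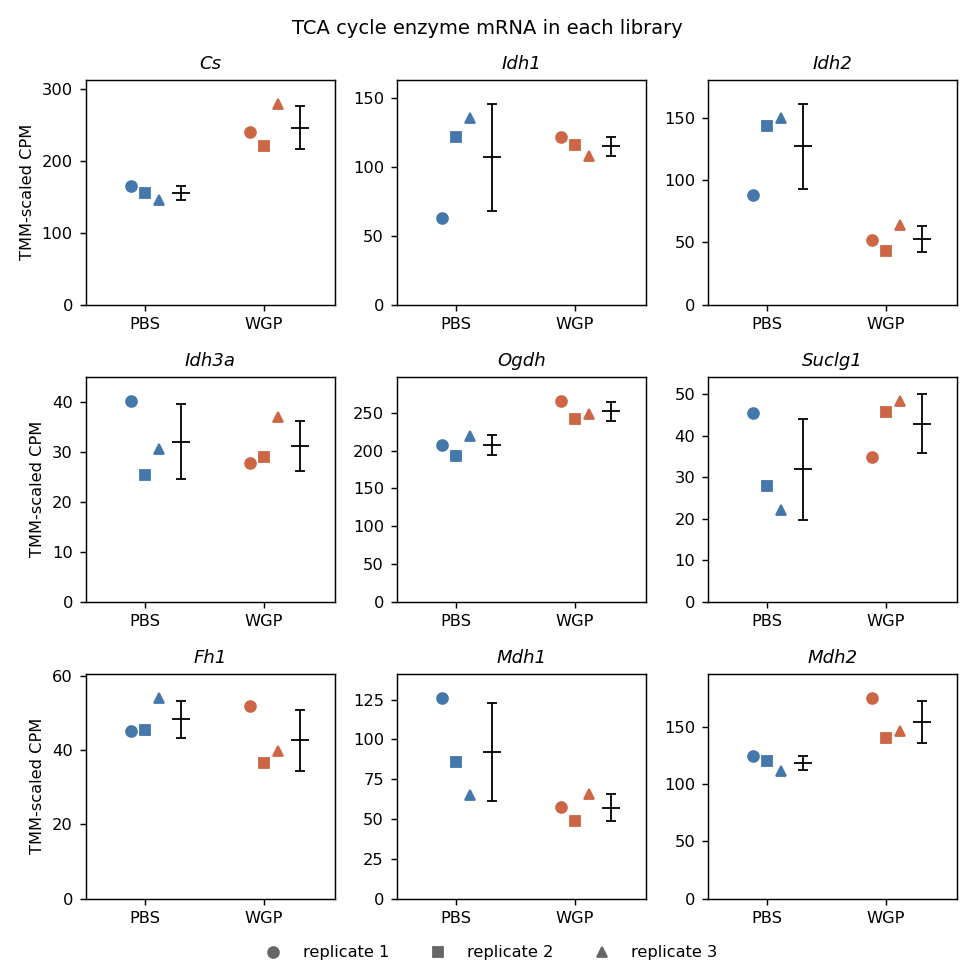
TMM-scaled CPM of each TCA cycle enzyme in each library (points, with the shape giving the replicate number) and the mean ± SD of each group of 3 (black), on axes that start at 0. Cs lay between 146 and 165 after PBS and between 220 and 279 after WGP, Idh2 lay between 87.5 and 150 and between 42.6 and 63.7, and PBS replicate 1 was the lowest PBS library for Idh1, Idh2 and Fh1 and the highest for Cs, Idh3a, Suclg1, Mdh1 and Mdh2.

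Citrate synthase makes citrate and so starts each turn of the cycle. Cs (ENSMUSG00000005683, chromosome 10, 128337734 to 128362479, plus strand, GRCm38) was measured at 165, 155 and 146 CPM after PBS and at 240, 220 and 279 CPM after WGP. Each WGP library was above each PBS library, and the PBS libraries lay within 1.13-fold of each other. The means were 155 ± 9.68 and 246 ± 29.8 CPM (SD, n = 3). The log2 fold change was 0.67 (SE 0.15, 95% interval 0.34 to 0.99, edgeR adjusted p = 0.0117). Its size stayed between 0.56 and 0.74 over 19 alternative fits, with adjusted p from 0.000184 to 0.0859. The call was lost without PBS replicate 2 (0.67, adjusted p = 0.0558), without WGP replicate 3 (0.57, adjusted p = 0.0663) and with the Y-linked covariate (0.58, adjusted p = 0.0859).

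3 isocitrate dehydrogenases turn isocitrate into 2-oxoglutarate. The mitochondrial NADP-dependent enzyme is encoded by Idh2 (ENSMUSG00000030541, chromosome 7, 80094846 to 80115392, minus strand), which was measured at 87.5, 143 and 150 CPM after PBS and at 51.9, 42.6 and 63.7 CPM after WGP. PBS replicate 1 lay well under the other PBS libraries, and all PBS libraries were above all WGP libraries. The means were 127 ± 34.0 and 52.7 ± 10.5 CPM (SD, n = 3), and the log2 fold change was −1.26 (SE 0.23, 95% interval −1.77 to −0.75, edgeR adjusted p = 0.00438). In 18 of 19 alternative fits the call stayed. It was lost with the Y-linked covariate, where the log2 fold change was −0.73 (adjusted p = 0.0681), while without PBS replicate 1 it was −1.47 (adjusted p = 0.000441).

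Idh1 (ENSMUSG00000025950, chromosome 1, 65158616 to 65186500, minus strand), which encodes the cytosolic enzyme and a source of NADPH, was measured at 62.7, 122 and 136 CPM after PBS and at 122, 116 and 108 CPM after WGP. 1 PBS library was below all WGP libraries and the other two were above them. Its log2 fold change was 0.11 (SE 0.25, 95% interval −0.45 to 0.66, edgeR adjusted p = 0.845). The value turned to −0.17 (adjusted p = 0.509) without PBS replicate 1, and it was 0.88 (adjusted p = 0.0157) with the Y-linked covariate, so its direction rested on that 1 library.

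The NAD-dependent enzyme, which is the isocitrate dehydrogenase of the cycle proper, is built of subunits from 3 genes, and Idh3a (ENSMUSG00000032279, chromosome 9, 54586334 to 54604661, plus strand) encodes the catalytic one. Idh3a was measured at 40.3, 25.5 and 30.6 CPM after PBS and at 27.8, 29.1 and 37.1 CPM after WGP, with full overlap of the groups. Its log2 fold change was −0.04 (SE 0.23, 95% interval −0.55 to 0.48, edgeR adjusted p = 0.949), and its sign turned when PBS replicate 1 (0.16), WGP replicate 1 (0.04) or WGP replicate 2 (0.01) was left out. Its partner subunits did not pass either, at 0.33 for Idh3b (SE 0.15, edgeR adjusted p = 0.208) and −0.14 for Idh3g (SE 0.15, adjusted p = 0.602).

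The ratio of Idh1 to Idh2 within a library does not depend on how libraries are scaled. Per kilobase of exon, Idh1 was at 0.670, 0.798 and 0.851 of the Idh2 level after PBS, and at 2.19, 2.54 and 1.58 times that level after WGP. By this measure Idh2 was thus the more abundant of the pair in every PBS library and Idh1 in every WGP library. Which gene ranks higher depends on the exon length used, while the change of the ratio between the groups does not. The log2 ratio moved from −0.38 ± 0.18 to 1.05 ± 0.35 (SD, n = 3), a difference of 1.42 or 2.68-fold. In a two-sided exact permutation test p was 0.1, the smallest that 3 libraries against 3 allow, and 0.133 after adjustment over 4 ratios. The difference stayed between 1.27 and 1.62 when each library was left out, and PBS replicate 1, although low for both genes, had a ratio near those of the other PBS libraries. By contrast, the ratio of Idh1 to Idh3a was 2.85, 8.73 and 8.16 after PBS and 7.99, 7.31 and 5.32 after WGP, with the groups overlapping (log2 difference 0.21, exact permutation p = 1, adjusted p = 1), and its difference turned to −0.32 without PBS replicate 1.

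**Figure D2:**
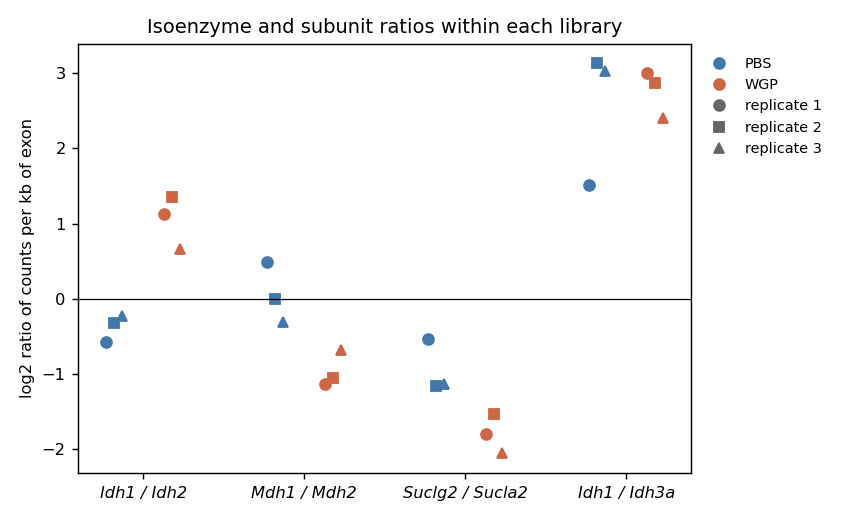
Log2 ratio of counts per kilobase of exon for 4 pairs of enzymes or subunits in each library, where 0 is an equal level of both genes. The Idh1 over Idh2 ratio was below 0 in all PBS libraries and above 0 in all WGP libraries, the Mdh1 over Mdh2 and Suclg2 over Sucla2 ratios were lower in every WGP library, and the groups overlapped for Idh1 over Idh3a.

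The 2-oxoglutarate dehydrogenase complex forms succinyl-CoA, and Ogdh (ENSMUSG00000020456, chromosome 11, 6291633 to 6356642, plus strand) encodes its first component. Ogdh was measured at 207, 193 and 220 CPM after PBS and at 266, 242 and 248 CPM after WGP. All WGP libraries lay above all PBS libraries, by a small margin. Its log2 fold change was 0.28 (SE 0.13, 95% interval −0.01 to 0.58), which did not pass (edgeR adjusted p = 0.214), and it stayed between 0.18 and 0.33 over the alternatives, with adjusted p from 0.138 to 0.473. The other components were at 0.38 for Dlst (SE 0.14, edgeR adjusted p = 0.112) and 0.37 for Dld (SE 0.20, adjusted p = 0.291), and neither passed.

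Succinyl-CoA ligase then releases succinate while making ATP or GTP, and Suclg1 (ENSMUSG00000052738, chromosome 6, 73248382 to 73276911, plus strand) encodes the alpha subunit that both forms of the enzyme share. Suclg1 was measured at 45.5, 27.9 and 22.2 CPM after PBS and at 34.8, 45.6 and 48.4 CPM after WGP. PBS replicate 1 lay within the WGP range and the other PBS libraries below it. The log2 fold change was 0.43 (SE 0.27, 95% interval −0.18 to 1.04, edgeR adjusted p = 0.368). Without PBS replicate 1 it was 0.78 (adjusted p = 0.0492), and with the Y-linked covariate −0.09 (adjusted p = 0.913). The beta subunits set which nucleotide is made. The GTP-specific Suclg2 was at 27.8, 20.7 and 19.4 CPM after PBS and 13.3, 15.9 and 11.7 after WGP, lower in every WGP library but not past the test (log2 fold change −0.73, SE 0.27, edgeR adjusted p = 0.105), while the ATP-specific Sucla2 was at 34.7 to 39.8 and 39.6 to 42.3 CPM (0.13, SE 0.17, adjusted p = 0.696). Per kilobase of exon, Suclg2 was at 0.690, 0.449 and 0.453 of the Sucla2 level after PBS and at 0.287, 0.346 and 0.239 after WGP, a log2 difference of −0.85 with no overlap (exact permutation p = 0.1, adjusted p = 0.133).

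Fumarase hydrates fumarate to malate. Fh1 (ENSMUSG00000026526, chromosome 1, 175600374 to 175625635, minus strand) was measured at 45.1, 45.5 and 54.0 CPM after PBS and at 51.9, 36.4 and 39.6 CPM after WGP, with overlapping groups and a log2 fold change of −0.18 (SE 0.20, 95% interval −0.61 to 0.26, edgeR adjusted p = 0.619). The gene overlaps Kmo, which encodes kynurenine 3-monooxygenase on the opposite strand, although their exons share 0 bases. Kmo was at 39.0, 45.3 and 50.8 CPM after PBS and at 53.9, 35.6 and 36.9 after WGP, the same order of libraries within the WGP group and within the PBS group as for Fh1. Whether the counting used strand was not given in the sources used here.

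Malate dehydrogenase closes the cycle in the matrix (Mdh2), and its cytosolic form (Mdh1) works with it in the malate-aspartate shuttle, which carries reducing equivalents across the inner membrane. Mdh2 (ENSMUSG00000019179, chromosome 5, 135778480 to 135790398, plus strand) was measured at 124, 120 and 111 CPM after PBS and at 175, 140 and 146 CPM after WGP. All WGP libraries were above all PBS libraries. The log2 fold change of Mdh2 was 0.38 (SE 0.14, 95% interval 0.05 to 0.70), which did not pass after adjustment (edgeR adjusted p = 0.125, and 0.0932 to 0.391 over the alternatives).

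Mdh1 (ENSMUSG00000020321, chromosome 11, 21556787 to 21572367, minus strand) was measured at 126, 85.6 and 64.8 CPM after PBS and at 57.3, 48.8 and 65.5 CPM after WGP. PBS replicate 1 was the highest, and PBS replicate 3 lay within the WGP range. The log2 fold change of −0.69 (SE 0.24, 95% interval −1.21 to −0.16) did not pass (edgeR adjusted p = 0.0866). It passed without PBS replicate 3 (−0.88, adjusted p = 0.0249) and with the Y-linked covariate (−1.13, adjusted p = 0.0109), and was −0.40 (adjusted p = 0.227) without PBS replicate 1. Mdh1 shares 52 exon bases with Wdpcp on the opposite strand, a gene at 0.977 to 3.03 CPM. Per kilobase of exon, Mdh1 was at 1.41, 0.993 and 0.807 times the Mdh2 level after PBS and at 0.455, 0.484 and 0.622 after WGP. The log2 ratio went from 0.06 ± 0.41 to −0.96 ± 0.24 (SD, n = 3), a difference of −1.01 with no overlap of the groups (exact permutation p = 0.1, the smallest possible, adjusted p = 0.133).

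By level per kilobase of exon, the order of the 9 genes differed between the groups. After PBS, Idh2 led with 48.9 ± 13.1 CPM per kilobase (SD, n = 3), followed by Idh1 (38.6 ± 14.1), Ogdh (37.9 ± 2.43), Mdh1 (35.8 ± 12.0) and Mdh2 (33.2 ± 1.76), where no neighbours in the order separated beyond their spread. Cs (26.9 ± 1.68) and Fh1 (14.2 ± 1.48) each stood apart from the next in order, and Suclg1 (6.90 ± 2.64) and Idh3a (6.34 ± 1.48) did not separate from each other. After WGP, Ogdh (46.1 ± 2.28), Mdh2 (43.1 ± 5.20), Cs (42.6 ± 5.16) and Idh1 (41.6 ± 2.50) led, and Mdh1 (22.3 ± 3.26) and Idh2 (20.4 ± 4.07) came next, with no separation beyond the spread within either set. Idh2 was in place 6 in each WGP library and in places 4, 1 and 1 in the PBS libraries. Fh1 (12.6 ± 2.42) was in place 7 in all 6 libraries but after WGP did not separate beyond the spread from Suclg1 (9.30 ± 1.55), which was above Idh3a (6.18 ± 0.987). Against all tested genes the enzymes ranged from the 59.4th percentile of level per kilobase for Idh3a to the 92.5th for Ogdh.

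PBS replicate 1 weighed differently on each gene. Cs, Ogdh and Mdh2 varied by no more than 1.14-fold among the PBS libraries, and leaving that library out moved their log2 fold changes to 0.71, 0.28 and 0.41. Idh1 varied 2.17-fold, Suclg1 2.06-fold and Mdh1 1.94-fold among the PBS libraries, against 1.13-fold, 1.39-fold and 1.34-fold among the WGP libraries. For Idh2 the PBS range was 1.71-fold. This library also had the highest B cell and neutrophil marker sums. It had no Y-linked counts, unlike the other PBS libraries but much like the WGP libraries. The part of these features in its enzyme levels was not tested.

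**Figure D3:**
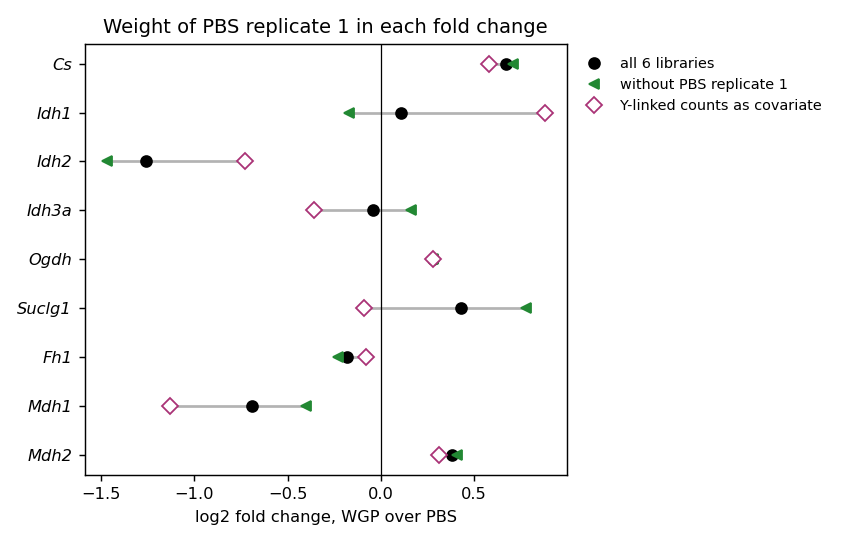
Log2 fold change (WGP over PBS) of each enzyme with all 6 libraries, without PBS replicate 1, and with a Y-linked covariate, which in effect compares WGP with PBS replicate 1. The 3 values lay close together for Cs (0.67, 0.71 and 0.58), Ogdh and Mdh2, and on both sides of 0 for Idh1 (0.11, −0.17 and 0.88), Idh3a and Suclg1.

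Of the 15 other subunits of the cycle, 14 were tested and 2 rose (7.54% of all genes did), both of succinate dehydrogenase, which oxidizes succinate to fumarate and is also complex II of the respiratory chain. Sdhd, a membrane anchor, was at 39.9, 46.5 and 48.6 CPM after PBS and at 89.2, 92.4 and 87.4 CPM after WGP (log2 fold change 0.99, SE 0.15, edgeR adjusted p = 0.0017). Sdhb, the iron-sulfur subunit, was at 62.5, 55.9 and 61.0 CPM after PBS and at 102, 93.6 and 109 CPM after WGP (0.76, SE 0.14, edgeR adjusted p = 0.00543, and 0.0503 with the Y-linked covariate). The groups of both genes were far from overlapping. The remaining subunits of that enzyme did not pass, with log2 fold changes of 0.20 for the catalytic Sdha (SE 0.15, edgeR adjusted p = 0.428) and 0.30 for the anchor Sdhc (SE 0.15, adjusted p = 0.248). None of the 14 passed as lower by edgeR, DESeq2 or limma-voom (1 at an unadjusted p under 0.05 in edgeR), where 6.81% of all genes passed as lower by edgeR. The list's median log2 fold change was 0.32, beside −0.05 over all genes.

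Of 13 genes for the entry of pyruvate, 3 rose, against 7.54% of all genes, and none passed as lower by edgeR, DESeq2 or limma-voom (0 at an unadjusted p under 0.05 in edgeR), against 6.81% of all genes by edgeR. Pdk1 and Pdk3 encode kinases that inactivate pyruvate dehydrogenase, and Mpc1 encodes a subunit of the mitochondrial pyruvate carrier. Pdk1 was at 31.0, 27.1 and 21.1 CPM after PBS and at 54.7, 67.1 and 71.9 CPM after WGP (log2 fold change 1.29, SE 0.21, edgeR adjusted p = 0.00203). Mpc1 was at 15.6, 10.5 and 19.9 CPM after PBS and at 38.1, 30.5 and 34.6 CPM after WGP (1.17, SE 0.27, edgeR adjusted p = 0.0151). Pdk3 was at 25.6, 16.0 and 15.1 CPM after PBS and at 34.8, 36.5 and 46.5 CPM after WGP (1.05, SE 0.26, edgeR adjusted p = 0.0208). All WGP libraries were above all PBS libraries for the 3 genes. All 3 also passed by DESeq2 and by limma-voom, with the highest adjusted p at 0.0191 for Pdk3 by limma-voom. The call of Pdk1 stayed in every alternative, while Mpc1 and Pdk3 each lost theirs with the Y-linked covariate (adjusted p = 0.106 and 0.234) and in 3 fits with 1 library left out, which for both included those without PBS replicate 2 (0.0509 and 0.0902) and without WGP replicate 3 (0.0529 and 0.0943). Mpc1 also lost it without WGP replicate 1 (0.0676) and Pdk3 without PBS replicate 3 (0.0631).

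Of 15 genes for exits from the cycle and for refilling it, Acod1 alone passed as higher (7.54% of all genes did). It encodes the enzyme that makes itaconate from cis-aconitate, an intermediate between Cs and the isocitrate dehydrogenases. Acod1 was at 108, 90.8 and 60.8 CPM after PBS and at 1088, 1243 and 966 CPM after WGP, a 12.7-fold difference (log2 fold change 3.67, SE 0.23, edgeR adjusted p = 1.23e-05). The lowest WGP library was far above the highest PBS library. None of the 15 passed as lower by edgeR, DESeq2 or limma-voom (1 at an unadjusted p under 0.05 in edgeR), where 6.81% of all genes did by edgeR, and the list's median log2 fold change was −0.22. The next smallest p-values belonged to Pck2, the mitochondrial phosphoenolpyruvate carboxykinase (−0.58, SE 0.22, edgeR adjusted p = 0.124), and Acly, which splits citrate in the cytosol (0.31, SE 0.15, adjusted p = 0.23).

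Of 9 mitochondrial carriers, 7 were tested and Slc25a12, a calcium-regulated aspartate-glutamate carrier of the malate-aspartate shuttle, rose. It was at 41.2, 46.7 and 35.2 CPM after PBS and at 80.4, 70.8 and 74.1 CPM after WGP (log2 fold change 0.87, SE 0.17, edgeR adjusted p = 0.00629). The citrate carrier Slc25a1 lay at the threshold, with 36.9, 31.2 and 24.6 CPM after PBS and 46.8, 51.8 and 48.5 CPM after WGP (0.67, SE 0.20, edgeR adjusted p = 0.0514, and 0.0398 by DESeq2). Slc25a35, at 2.13 to 4.18 and 7.99 to 9.12 CPM, did not pass (1.46, SE 0.52, edgeR adjusted p = 0.0954, and 0.0308 by DESeq2). None of the carriers passed as lower by edgeR, DESeq2 or limma-voom (1 at an unadjusted p under 0.05 in edgeR), where 6.81% of all genes did by edgeR, and the list's median log2 fold change was 0.51. Over the 4 lists, 7 of 49 tested genes passed as higher, where 7.54% of all genes did, and 0 as lower, where 6.81% did (3 at an unadjusted p under 0.05 in edgeR, 0 by DESeq2 or limma-voom). With the Y-linked covariate 4 passed as higher, where 6.76% of all genes did in that fit, a share near the background. The groups did not overlap for 20 genes with WGP higher, against 16.0% of all genes, and for 4 with WGP lower, against 16.1%.

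**Figure D4:**
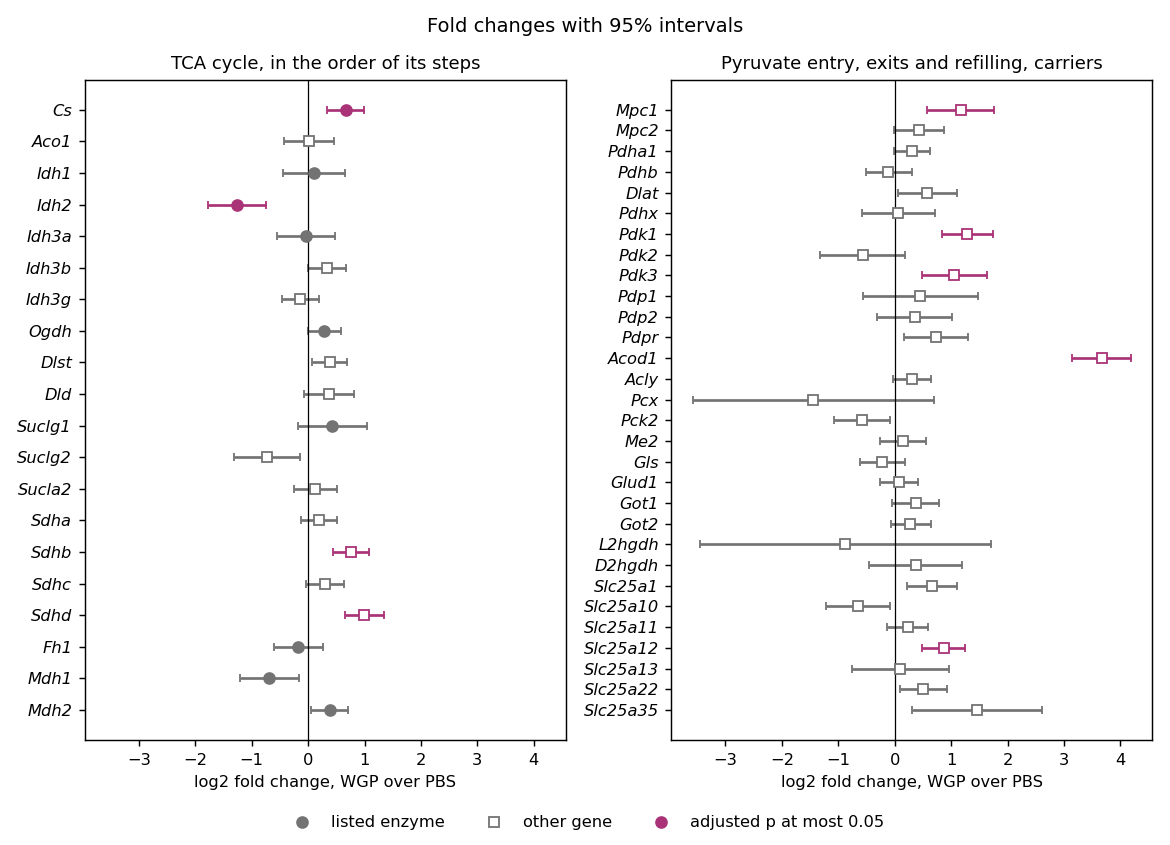
Log2 fold changes (WGP over PBS) with 95% intervals from edgeR for 20 genes of the cycle in the order of its steps and for 30 genes of the other lists with at least 10 counts in every library, where filled circles are the 9 enzymes and purple marks an adjusted p of at most 0.05. Of the genes past that adjusted p, Cs, Sdhb and Sdhd within the cycle lay above 0 and Idh2 lay below at −1.26. In the other lists those past it were Mpc1, Pdk1, Pdk3, Acod1 and Slc25a12, all above 0.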

How the data were processed

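Per the labels and the study's methods, poly-A libraries were sequenced single-end, aligned by the authors with STAR (version 2.6) to mm10 (GRCm38.p6) and counted with HTSeq (version 0.10.0). The deposited values are raw counts per gene. Annotation release, strand setting and duplicate handling were not given in the sources used here. Gene models came from GENCODE vM21 (GRCm38), where 21700 of 21780 genes were protein-coding and 26 had no entry.

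Tested were the 14429 protein-coding genes whose RLE-normalized counts summed to 10 or more across libraries. WGP was set against PBS with edgeR 4.0.16 (TMM, quasi-likelihood, no covariate) in R 4.3.3, with Benjamini-Hochberg adjustment over all of them. On simulated data the test recovered the direction and size of known changes but called more unchanged genes than the threshold allows. CPM were TMM-scaled. Ratios used counts per kilobase of exon with 0.5 count added. Exon length was the union of all annotated exons of a gene, not the length of the transcripts expressed, so levels compared between genes depend on it. Replicate number did not pair libraries (correlations of deviations 0.003, −0.045 and 0.011).

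Alternatives covered scaling, filters, DESeq2 1.42.0, limma 3.58.1 (voom), thinning, a replicate block, a Y-linked covariate and each library left out. Counts divided by the commonest low count were added after the data were seen. Members and lists were chosen with earlier results of these data known. The genes named are the 9 enzymes, their partner subunits, of each other list those that passed and, where fewer than 3 did, the 3 with the smallest p, and markers of cell types whose list moves. Sdha, Sdhc, Kmo and Wdpcp were added after their values were seen. 1 gene that the rule would name is not reported here.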

Additional observations from a re-analysis of the deposited data

How the results depend on the processing

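Over 19 alternative fits, Ogdh, Fh1 and Mdh2 kept their direction and stayed short of the threshold, and the Idh1 to Idh2, Mdh1 to Mdh2 and Suclg2 to Sucla2 ratios kept their direction in the 9 alternatives run for them. With Y-linked counts as a covariate, log2 fold changes were 0.58 (Cs, no longer past), −0.73 (Idh2, no longer past), 0.88 (Idh1, now past), −1.13 (Mdh1, now past), −0.09 (Suclg1, reversed) and 0.11 (Kmo, reversed), and 4 other pathway genes were higher. With library totals only, the median of all genes moved by −0.10 and the log2 ratio of the summed CPM was 0.01. When each library was left out in turn, log2 fold changes ran from 0.57 to 0.74 for Cs, from −0.17 to 0.32 for Idh1, from −0.18 to 0.16 for Idh3a (0.16 without PBS replicate 1, 0.04 without WGP replicate 1 and 0.01 without WGP replicate 2), from 0.23 to 0.78 for Suclg1, from −0.88 to −0.40 for Mdh1 and from −0.31 to 0.01 for Kmo (0.00 without PBS replicate 3). The Idh1 to Idh3a difference ran from −0.32 to 0.49. Members past the threshold numbered 0 to 2 as higher (0 without PBS replicate 2 or WGP replicate 3, 2 without PBS replicate 1) and 1 to 2 as lower (2 without PBS replicate 3), and lower genes overall 643 (without PBS replicate 2) to 1051. Leaving out a library leaves fewer samples; other causes were not tested. Replicate numbers did not pair the libraries, and a fit with the replicate number as a block gave Cs 0.66 and Idh2 −1.24 and changed no call of a member. With 3 libraries a group, the 95% intervals of all 7 members that did not pass allow changes of more than 0.4 on the log2 scale in at least 1 direction. Thinning to the smallest total moved no member by more than 0.01.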
